A study of Mus musculus with 6 samples.

Results

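Endothelial lineage and angiogenesis genes were examined in the bulk RNA-Seq data of NIH3T3 cells that express the TAZ-CAMTA1 (TC) fusion. They are 44 named genes, chosen as markers of the lineage of the tumour that carries the fusion, epithelioid hemangioendothelioma, a vascular sarcoma. All 44 were matched by Ensembl identifier among the 55401 genes of the count files. By role they comprise 7 surface and junction genes, 7 receptors, 10 secreted ligands, 10 transcription factors, 4 secreted or vascular tone genes, 4 anticoagulant or leukocyte adhesion genes and 2 lymphatic surface genes.

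NIH3T3 is an immortalized line of mouse embryonic fibroblasts, so the genes were measured outside the lineage that they mark. There were 2 libraries of empty vector cells given vehicle (EV), 1 library of TC cells given vehicle (TC) and 3 libraries of TC cells given 10 μM aurintricarboxylic acid (ATA) for 48 h (TC + ATA). The vehicle was DMSO, and treatment began 16 h after seeding in every group. ATA is a small molecule that was studied as a disruptor of the binding of TAZ to TEAD transcription factors. TC versus EV addresses what the fusion alters, TC + ATA versus TC what ATA alters in fusion cells, and TC + ATA versus EV how far treated fusion cells stand from cells without the fusion. There was no library of EV cells given ATA. The sources do not say whether the TC cells are 1 clone or a pool, or whether the libraries of a group are separate cultures, so the p-values measure only the spread between these libraries.

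Endothelial cells line blood and lymph vessels and are recognised by junction and surface proteins such as VE-cadherin (Cdh5), PECAM-1 (Pecam1) and endomucin (Emcn). Their growth is driven by VEGF ligands, which are secreted by many cell types, fibroblasts included, and act on the receptors encoded by Kdr, Flt1 and Flt4 on the endothelium. Angiopoietin-1 and angiopoietin-2 compete for the receptor TIE2 (Tek), and factors of the ETS, GATA and MEF2 families drive much of the endothelial programme.

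The library totals ran from 58471484 to 74413193 counts, and 3 counts, taken as the limit of detection, came to between 0.0403 and 0.0513 CPM, the usual scaling of counts to a common library total. No library was a near copy of another by the chi-square statistic of the counts per degree of freedom. It was 61.3 for the EV pair and from 5.86 to 6.61 within TC + ATA. Between TC and TC + ATA it ran from 22.8 to 24.7. By this measure the EV libraries differed more from each other than TC did from TC + ATA. Levels are given as CPM (after TMM normalization) within a gene and as RPKM (CPM per kilobase of exon) where genes are compared with each other. Differences are log2 fold changes from edgeR's quasi-likelihood test with its standard error (SE), and a gene was called at a Benjamini-Hochberg adjusted p of at most 0.05 over the 18539 genes tested. The single TC library has no spread of its own and was assumed to vary like the others, whose spread was unequal between EV and TC + ATA.

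The RefSeq promoter table of the same genome build (GRCm38.p6) held 38 start sites for 27 of the 44 genes. The 250 bases before the start are shown for the 3 genes with the largest fold changes in TC versus EV among those called whose window ends where the GENCODE M21 gene begins. Flt1 was higher in TC than in EV, and Mef2c and Apln were lower. Capitals mark a match to the TEAD motif GGAATG or its reverse CATTCC, the AP-1 motif TGANTCA, the ETS motif CCGGAA or TTCCGG, or the cyclic AMP response element TGACGTCA. The last was added after the sequences had been read.
Flt1 (chr5:147726012-147726261, minus strand): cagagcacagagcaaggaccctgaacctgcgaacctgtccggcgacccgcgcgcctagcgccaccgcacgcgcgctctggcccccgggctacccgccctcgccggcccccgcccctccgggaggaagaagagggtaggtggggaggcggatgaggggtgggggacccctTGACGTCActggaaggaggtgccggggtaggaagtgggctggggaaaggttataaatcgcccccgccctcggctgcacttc
Mef2c (chr13:83503784-83504033, plus strand): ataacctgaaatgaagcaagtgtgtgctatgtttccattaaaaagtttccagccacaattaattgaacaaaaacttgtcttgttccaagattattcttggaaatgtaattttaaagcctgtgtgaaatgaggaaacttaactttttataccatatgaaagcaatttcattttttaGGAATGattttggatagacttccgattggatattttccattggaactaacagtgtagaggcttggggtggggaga
Apln (chrX:48034854-48035103, minus strand): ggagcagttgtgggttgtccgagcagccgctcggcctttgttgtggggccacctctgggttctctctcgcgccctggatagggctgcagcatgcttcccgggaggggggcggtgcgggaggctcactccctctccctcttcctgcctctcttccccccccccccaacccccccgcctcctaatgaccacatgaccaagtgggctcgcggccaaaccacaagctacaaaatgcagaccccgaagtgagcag

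The Flt1 window held the cyclic AMP response element 81 bases before the start, a sequence found in 508 of all 32851 promoters (1.55%). In the first Mef2c window a TEAD motif began 75 bases before the start. That motif was in 5 of the 38 windows of these genes (Tal1, Gata2, Clec14a, Mef2c and Erg) and in 12.6% of all promoters. The AP-1 pattern TGANTCA, with any base at N, matched in 3 windows against 6.75% of all promoters. It read TGACTCA in Sele and Procr and TGAATCA in another start of Mef2c. The ETS motif was in 1 window (Kdr) against 12.0%. The Apln window held none of the motifs. Such matches describe letters in a window and were not linked to binding in these data.

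The genes spanned a wide range of levels in these fibroblasts. Over the 6 libraries, 15 genes averaged 10 CPM or more, 7 were between 1 and 10 CPM, 11 were between 0.1 and 1 CPM and 11 were under 0.1 CPM. In all, 22 of the 44 reached 1 CPM, against 22.9% of all genes in the files. That share is over all 55401 identifiers and was not limited to protein-coding genes, so it is not a matched background. The highest per length was Vegfb (VEGF-B) with a mean of 40.8 RPKM, followed by Pdpn (podoplanin) at 32.6 RPKM, Vegfd (VEGF-D) at 25.5 RPKM and Angptl2 at 24.9 RPKM. The lowest were Prox1, Sele, Hhex and Esm1, at 0.00454, 0.00511, 0.00528 and 0.0102 RPKM. The filter on low counts kept 37 of the 44 in the test and left out Clec14a, Esm1, Sele, Prox1, Tal1, Hhex and Lyve1. Because the smallest group has 1 library, a gene near that limit can have passed through its highest library alone.

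The 10 genes taken as endothelial defining markers were at low levels in every group, and 1 of them, Clec14a, had 0 counts in the TC library. Their summed level was between 2.37 and 3.19 CPM in EV, 4.55 CPM in TC and between 4.50 and 5.40 CPM in TC + ATA. The 10 fibroblast markers (collagen genes, Fn1, Vim and others) summed to between 15030 and 17174 CPM in EV. Their sum was 19034 CPM in TC and between 18670 and 19880 CPM in TC + ATA. Fibroblast transcripts thus dominated in each group, as labelled. In bulk RNA, fewer cells of a type and less RNA per cell cannot be told apart.

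Pecam1 (PECAM-1, an adhesion molecule of endothelial junctions) stood at 0.989 and 0.590 CPM in EV, 0.778 CPM in TC and 1.06, 1.24 and 0.963 CPM in TC + ATA. The EV range took in the TC value and 1 TC + ATA library, and Pecam1 was not called in any comparison. Tie1, a partner of TIE2, was at 0.294 and 0.184 CPM in EV, 0.202 CPM in TC and 0.475, 0.522 and 0.403 CPM in TC + ATA. The TC + ATA libraries were above the other 3, with a log2 fold change over EV of 0.96 (SE 0.44) and an edgeR adjusted p of 0.126. Tek (TIE2) stood at 0.281 and 0.236 CPM in EV, 0.403 CPM in TC and 0.704, 0.592 and 0.345 CPM in TC + ATA. Set against EV, the treated libraries gave a log2 fold change of 1.07 (SE 0.45, edgeR adjusted p = 0.0965). Both genes fell short of the threshold. Their EV and TC + ATA ranges did not overlap, but with so few libraries this adds little to the test. The share of all genes without such an overlap was not counted.

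Erg, an ETS factor that maintains endothelial identity, had 18 and 6 counts in EV, 7 in TC and 14, 6 and 13 in TC + ATA. Vwf, the clotting factor stored in endothelial granules, had 20 and 14 counts in EV, 28 in TC and 32, 20 and 28 in TC + ATA. Emcn (endomucin) had 5 and 10 counts in EV, 12 in TC and 8, 10 and 6 in TC + ATA. None of these was called. Clec14a, an endothelial lectin, had 4 and 6 counts in EV, 0 in TC (which allows up to 3) and 6, 7 and 2 in TC + ATA, so that a difference was not detectable at this depth. The 3 defining genes that were called in some comparison, Cdh5, Kdr and Plvap, are described with their roles.

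**Figure D1:**
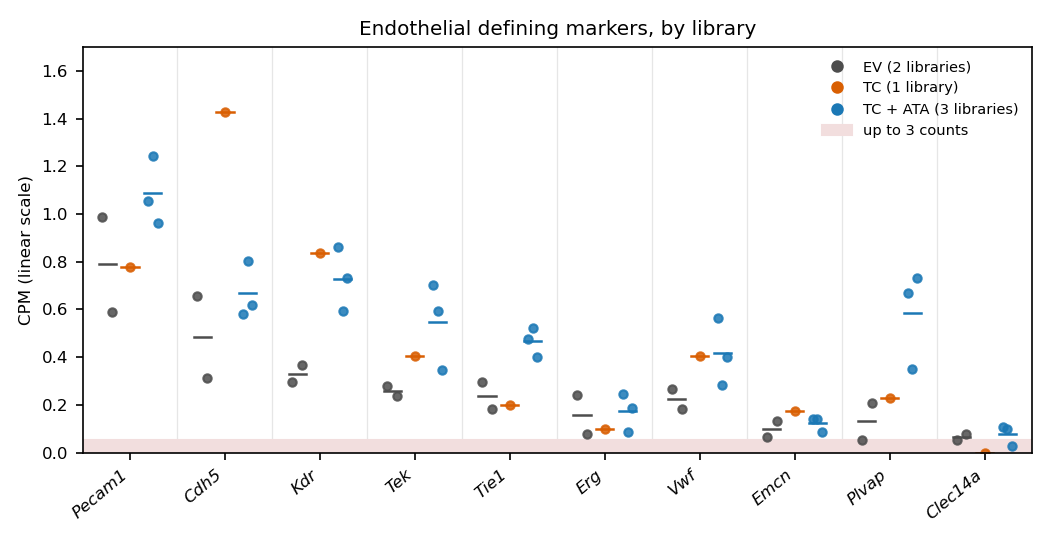
The 10 endothelial defining markers in the 6 libraries, in CPM on a linear scale, with a point per library, a bar at the group mean and a band up to 3 counts. All points lie under 1.5 CPM, and the highest is Cdh5 in the TC library at 1.43 CPM.

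Across all 44 genes, TC versus EV gave 9 called higher and 6 called lower of the 37 tested. The shares over the whole test were 14.8% higher and 13.2% lower. The 9 were Acvrl1, Flt1, Cdh5, Ets1, Thbd, Vegfc, Vegfd, Pdpn and Vcam1, and the 6 were Angpt1, Angptl4, Mef2c, Apln, Cd34 and Ets2. With an absolute log2 fold change of at least 2 as a further limit, Acvrl1 remained on the higher side and Angpt1 on the lower, where 2.36% and 1.27% of all genes passed. DESeq2 on the EV and TC libraries alone called 4 of the 9 (Acvrl1, Flt1, Ets1 and Thbd) and 4 of the 6 (Angpt1, Angptl4, Mef2c and Apln). The median log2 fold change was −0.02 over the tested members and −0.03 over all genes. Counted over the 22 members of at least 1 CPM, 8 were higher and 6 lower, with 19.3% and 18.3% of all genes at that level.

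TC + ATA versus EV gave 11 called higher and 8 called lower, against 18.0% and 18.6% of all genes. Acvrl1 and Plvap passed the further limit of 2 on the higher side and Angpt1 on the lower, as did 2.8% and 1.06% of all genes. Median log2 fold changes were 0.30 for the tested members and −0.01 for all genes. At 1 CPM or more there were 9 higher and 8 lower, with 22.7% and 25.2% of all genes, and the median of those 22 members was 0.03. Both comparisons with EV share its 2 libraries, and their values are given side by side.

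TC + ATA versus TC gave 1 member called higher, Angpt2, and 0 called lower, where 0.426% of all genes were called higher and 0.156% lower. At an unadjusted p under 0.05 in the same edgeR fit, 5 members were higher (Angpt2, Flt1, Lmo2, Mef2c and Vegfd) and 4 were lower (Angptl2, Cdh5, Ets1 and Thbd), where 5.65% of all genes were higher and 3.95% lower. DESeq2 on the 6 libraries called Angpt2 higher and 1 gene lower, Angptl2. The tested members had a median of 0.09 in this comparison and all genes 0.00.

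**Figure D2:**
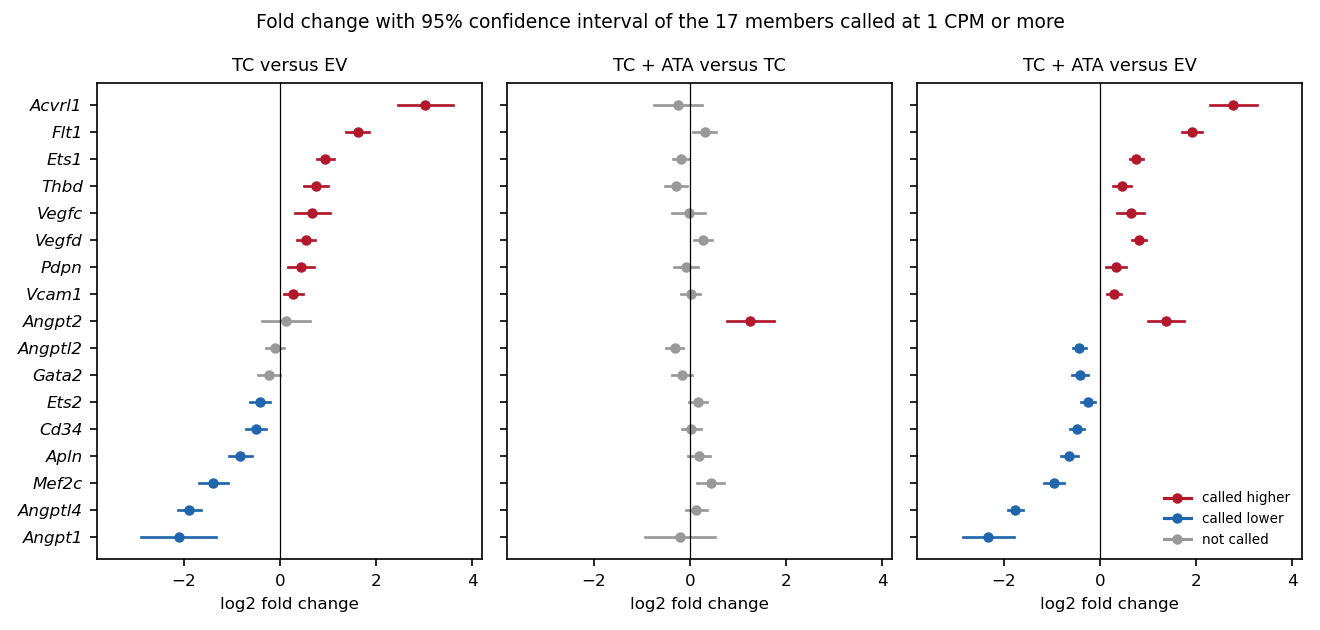
Log2 fold changes (points) with 95% confidence intervals (lines) of the 17 members called in at least 1 comparison and with a mean of at least 1 CPM, coloured by call. The left and right panels share a similar spread from Acvrl1, the highest, to Angpt1, the lowest, whereas in the middle panel Angpt2 alone is coloured.

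Among the receptors, Acvrl1, Flt1 and Kdr were called in at least 1 comparison, always higher in cells with the fusion. Acvrl1 encodes ALK1, the endothelial type I receptor for BMP9 and BMP10. It lies on chromosome 15 from 101128522 to 101145336 and shares 127 of its 4265 exonic bases with a gene on the other strand. Acvrl1 stood at 0.936 and 0.590 CPM in EV, 6.19 CPM in TC and 5.26, 5.59 and 4.77 CPM in TC + ATA. All 4 libraries with the fusion were far above both EV libraries. The log2 fold change was 3.02 (SE 0.25, edgeR adjusted p = 3.24e-05) in TC versus EV and 2.77 (SE 0.21, edgeR adjusted p = 1.37e-05) in TC + ATA versus EV. Between TC + ATA and TC it was −0.25, with a 95% confidence interval from −0.75 to 0.25.

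Flt1 encodes VEGFR1, which binds VEGF-A, VEGF-B and placental growth factor and acts in large part as a trap for them. It lies on chromosome 5 from 147561604 to 147726011. Reads came to 11.1 and 10.9 CPM in EV, 33.5 CPM in TC and 45.0, 40.1 and 38.5 CPM in TC + ATA. Every fusion library was above the EV libraries, and every TC + ATA library was above TC. In TC versus EV the mean rose 3.05-fold, with a log2 fold change of 1.61 (SE 0.11, edgeR adjusted p = 9.95e-06). TC + ATA versus EV gave 1.91 (SE 0.09, edgeR adjusted p = 6.76e-07). The step from TC to TC + ATA was 0.30 (SE 0.10) and was not called (edgeR adjusted p = 0.377), though it was called when EV replicate 2 was left out and when the fit held only these 2 groups.

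Kdr encodes VEGFR2, the main signalling receptor for VEGF-A. It had 0.294 and 0.367 CPM in EV, 0.835 CPM in TC and 0.862, 0.592 and 0.733 CPM in TC + ATA, from 22 to 58 counts per library. The EV libraries were the lowest of the 6. Its log2 fold change was 1.33 (SE 0.45, edgeR adjusted p = 0.0542) in TC versus EV and 1.13 (SE 0.36, edgeR adjusted p = 0.0349) in TC + ATA versus EV. The former passed without EV replicate 2 (edgeR adjusted p = 0.0478), and the latter call was lost under 7 of the 12 alternatives that tested Kdr, among them leaving out EV replicate 1 (edgeR adjusted p = 0.106) or any TC + ATA replicate. Per length, Flt1 was above Kdr in every group, at a mean of 0.812 against 0.0366 RPKM in EV, 2.48 against 0.0925 RPKM in TC and 3.05 against 0.0808 RPKM in TC + ATA.

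The remaining receptors, Flt4, Tek, Tie1 and Aplnr, were not called in any comparison. Flt4, the receptor for VEGF-C and VEGF-D on lymphatic endothelium, had 12 and 4 counts in EV, 8 in TC and 6, 2 and 3 in TC + ATA. Aplnr, the apelin receptor, had between 2 and 12 counts in a library. Both are close to the limit of detection.

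Of the VEGF ligands, Vegfc and Vegfd were called higher in TC than in EV, and Vegfa, Vegfb and Pgf were not called. Vegfd encodes VEGF-D, a ligand of the lymphatic receptor, and lies on chromosome X from 164373378 to 164402650. It was at 42.3 and 42.5 CPM in EV, 61.3 CPM in TC and 77.9, 73.5 and 70.9 CPM in TC + ATA. These groups did not overlap, with EV lowest and TC + ATA highest. The log2 fold change was 0.53 (SE 0.08, edgeR adjusted p = 0.0016) in TC versus EV and 0.80 (SE 0.07, edgeR adjusted p = 1.89e-05) in TC + ATA versus EV. From TC to TC + ATA it was 0.27 (SE 0.08), which was not called (edgeR adjusted p = 0.279) but passed without EV replicate 1, without EV replicate 2 or with these 2 groups alone.

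Vegfc (VEGF-C, the other lymphatic growth factor) stood at 4.57 and 4.33 CPM in EV, 7.07 CPM in TC and 6.40, 6.78 and 7.63 CPM in TC + ATA. Fusion libraries were all above EV, and the TC value lay inside the TC + ATA range. TC versus EV gave 0.67 (SE 0.16, edgeR adjusted p = 0.0134), and TC + ATA versus EV gave 0.64 (SE 0.12, edgeR adjusted p = 0.0034). In TC + ATA versus TC the interval ran from −0.37 to 0.32. A fit of EV and TC alone did not call the first.

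Vegfa, the ligand that drives most sprouting of blood vessels, was at 70.4 and 90.9 CPM in EV, 69.6 CPM in TC and 76.5, 68.5 and 77.8 CPM in TC + ATA. The spread of the EV pair was larger than any difference between the group means. Its 95% confidence interval for TC versus EV ran from −0.54 to 0.11. Without EV replicate 1, the lower of the pair, Vegfa was called lower in TC at −0.40 (edgeR adjusted p = 0.00261) and in TC + ATA at −0.30 (edgeR adjusted p = 0.00289), and without EV replicate 2 it was not called. Vegfb ran from 59.0 to 71.4 CPM and Pgf (placental growth factor) from 12 to 38 counts per library.

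**Figure D3:**
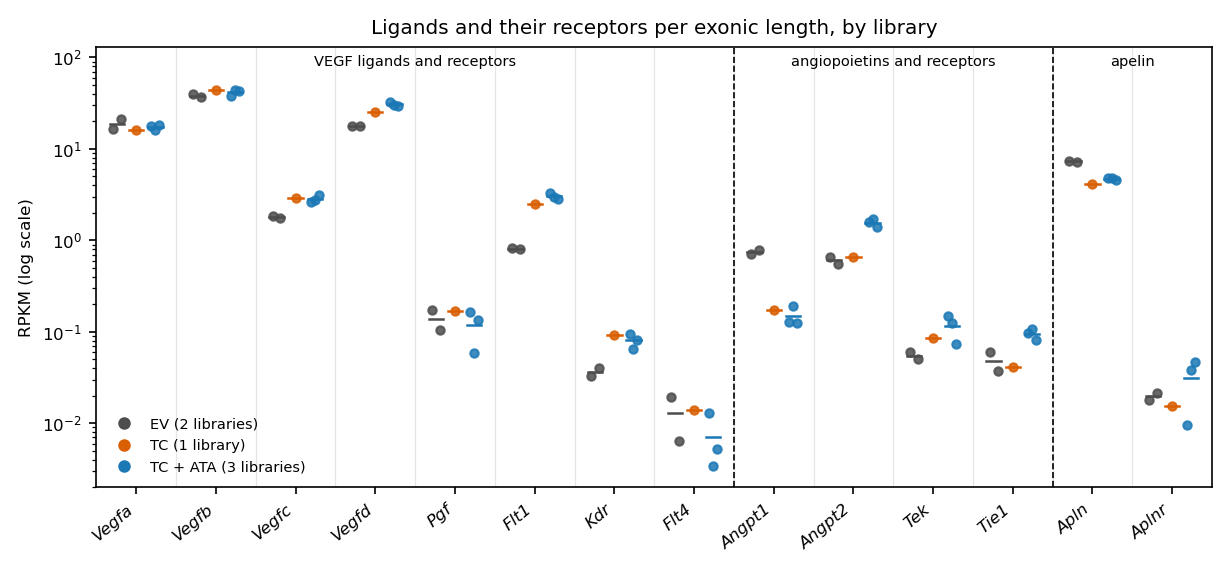
VEGF, angiopoietin and apelin ligands with their receptors in RPKM on a log scale, with a point per library and a bar at the group mean. Vegfa, Vegfb and Vegfd lie above 15 RPKM in every library, whereas Kdr, Flt4, Tek, Tie1 and Aplnr lie under 0.2 RPKM.

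The angiopoietins moved apart. Angpt1 encodes angiopoietin-1, the activating ligand of TIE2, which mural cells and fibroblasts secrete. It lies on chromosome 15 from 42424723 to 42676977 and shares 737 of 5205 exonic bases with a gene on the other strand. In EV it was at 3.65 and 4.09 CPM, in TC at 0.893 CPM and in TC + ATA at 0.669, 0.987 and 0.647 CPM. The 4 fusion libraries were all far under EV, and TC fell inside the TC + ATA range. Angpt1 had the largest decrease among the members called in both comparisons with EV, at −2.11 (SE 0.34, edgeR adjusted p = 0.00182) in TC and −2.33 (SE 0.23, edgeR adjusted p = 7.19e-05) in TC + ATA. Between TC + ATA and TC the value was −0.21, with an interval from −0.94 to 0.52.

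Angpt2 encodes angiopoietin-2, which usually antagonises TIE2 and loosens vessels, and lies on chromosome 8 from 18690263 to 18741562. It was at 2.43 and 2.03 CPM in EV, 2.42 CPM in TC and 5.89, 6.33 and 5.12 CPM in TC + ATA. The TC library lay within the EV range, and the 3 treated libraries were well above all others. TC + ATA was 2.39-fold higher than TC, with a log2 fold change of 1.26 (SE 0.21, edgeR adjusted p = 0.0447). Against EV it was 1.37 (SE 0.16, edgeR adjusted p = 0.000203), while TC versus EV gave 0.12 (SE 0.22, edgeR adjusted p = 0.746). The call against TC was lost without TC + ATA replicate 1, 2 or 3 (edgeR adjusted p = 0.169, 0.191 and 0.145), where the log2 fold change stayed between 1.18 and 1.34. It rests on a single TC library, and the call against EV held under each alternative that was run. In RPKM, the mean of Angpt1 was above that of Angpt2 in EV and under it in the fusion groups, as the plot of ligands and receptors shows.

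The angiopoietin-like genes encode secreted proteins that do not bind TIE2. Angptl4, an inhibitor of lipoprotein lipase, was at 146 and 133 CPM in EV, 37.8 CPM in TC and 44.001, 40.3 and 39.6 CPM in TC + ATA. All fusion libraries were far under EV, with a log2 fold change of −1.89 (SE 0.11, edgeR adjusted p = 3.58e-06) in TC and −1.76 (SE 0.07, edgeR adjusted p = 3.07e-07) in TC + ATA. Angptl2, an inflammatory secreted protein, was at 187 and 178 CPM in EV, 169 CPM in TC and 139, 133 and 134 CPM in TC + ATA. The treated libraries were the lowest, and TC versus EV gave −0.11 (SE 0.08), called only without EV replicate 2 among the alternatives. Angptl2 was called lower with the fusion and ATA than in EV at −0.43 (SE 0.06, edgeR adjusted p = 0.000459) but not in TC + ATA versus TC at −0.32 (SE 0.07, edgeR adjusted p = 0.128). DESeq2 called the latter, and so did edgeR without EV replicate 1, without EV replicate 2 or with these groups alone.

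Apln encodes apelin, a peptide ligand that sprouting endothelium makes. It lies on chromosome X from 48025146 to 48034853 and was at 23.5 and 22.7 CPM in EV, 13.0 CPM in TC and 15.0, 15.1 and 14.4 CPM in TC + ATA. EV was highest, and the TC library was the lowest of the 6. Apln fell by 0.83 on the log2 scale in TC (SE 0.11, edgeR adjusted p = 0.000449) and by 0.64 in TC + ATA (SE 0.07, edgeR adjusted p = 0.000189), each against EV. The step between TC and TC + ATA was 0.19, with an interval from −0.04 to 0.41.

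Surface and junction genes went in both directions. Cdh5, which encodes VE-cadherin and lies on chromosome 8 from 104101625 to 104144511, was at 0.655 and 0.315 CPM in EV, 1.43 CPM in TC and 0.581, 0.804 and 0.618 CPM in TC + ATA. The TC library was alone at the top, with 99 counts against 24 to 57 elsewhere, and the EV and TC + ATA ranges overlapped. It was called higher in TC versus EV at 1.55 (SE 0.48, edgeR adjusted p = 0.0386), a value that rests on 1 library. The call was lost under 6 of the 12 alternatives that tested Cdh5. These were the replicate block, DESeq2 on EV and TC alone, and leaving out EV replicate 2 or any 1 TC + ATA replicate. Without EV replicate 2 the log2 fold change was 1.12. Without EV replicate 1 it was 2.16. TC + ATA versus TC gave −1.09 (SE 0.44, edgeR adjusted p = 0.468).

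Plvap, a component of endothelial diaphragms, had 4 and 16 counts in EV, 16 in TC and 38, 25 and 51 in TC + ATA. In CPM these were 0.0535 and 0.210 for EV, 0.230 for TC and 0.669, 0.353 and 0.733 for TC + ATA. The treated libraries were the highest, yet the EV pair itself differed several-fold. Plvap was called in TC + ATA versus EV at 2.13 (SE 0.63, edgeR adjusted p = 0.027). Without EV replicate 1 the value was 1.45 (edgeR adjusted p = 0.0824) and without EV replicate 2 it was 3.41, and the call was also lost without TC + ATA replicate 1 or 3.

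Cd34, a sialomucin of vascular endothelium that many fibroblasts also carry, was the most abundant gene of this role. It was at 154 and 138 CPM in EV, 103 CPM in TC and 102, 108 and 105 CPM in TC + ATA. EV was above every fusion library, and TC lay inside the TC + ATA range. Cd34 fell by 0.50 on the log2 scale in TC (SE 0.09, edgeR adjusted p = 0.00355) and by 0.48 in TC + ATA (SE 0.07, edgeR adjusted p = 0.000539). Of its 7290 exonic bases, 148 are shared with a gene on the other strand. Icam2, an adhesion molecule, had between 2 and 10 counts in a library and was not called.

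Among the anticoagulant and adhesion genes, Thbd and Vcam1 were called higher in both fusion groups than in EV. Thbd encodes thrombomodulin, which turns thrombin towards activating protein C. It was at 64.9 and 54.5 CPM in EV, 99.99 CPM in TC and 85.7, 81.6 and 78.2 CPM in TC + ATA. EV was lowest, TC highest and TC + ATA between them. Log2 fold changes over EV were 0.74 (SE 0.11, edgeR adjusted p = 0.00102) in TC and 0.45 (SE 0.08, edgeR adjusted p = 0.00279) in TC + ATA. The difference of −0.29 (SE 0.10) between TC + ATA and TC was not called (edgeR adjusted p = 0.394), but it was called without EV replicate 1 or 2 and with these groups alone.

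Vcam1 encodes an adhesion molecule of activated endothelium that stromal cells also express. It was at 122 and 109.5 CPM in EV, 140.5 CPM in TC and 140.1, 145 and 139 CPM in TC + ATA. The 4 fusion libraries sat close together above EV, with log2 fold changes of 0.28 (SE 0.09, edgeR adjusted p = 0.0473) in TC and 0.29 (SE 0.07, edgeR adjusted p = 0.00924) in TC + ATA. These are the smallest of the called increases, and the call in TC was lost under 7 of 13 alternatives, including scaling by library size only and leaving out any 1 TC + ATA replicate. Procr, the endothelial receptor for protein C, was at 12.6 and 11.6 CPM in EV, 10.8 CPM in TC and 12.1, 12.8 and 11.6 CPM in TC + ATA, and was not called. Sele (E-selectin) had 0 counts in the EV and TC libraries and 1, 1 and 4 in TC + ATA, at the limit of detection.

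Transcription factors were led by Ets1, an ETS factor of endothelium and mesenchyme on chromosome 9 from 32636221 to 32757820. It was at 90.0 and 88.9 CPM in EV, 172 CPM in TC and 155, 152 and 147 CPM in TC + ATA. The fusion libraries were all above EV, and TC was above each TC + ATA library. Ets1 rose by 0.94 on the log2 scale in TC (SE 0.08, edgeR adjusted p = 2.83e-05) and by 0.76 in TC + ATA (SE 0.06, edgeR adjusted p = 1.57e-05). The step from TC to TC + ATA of −0.18 (SE 0.07) was not called (edgeR adjusted p = 0.457), but was without EV replicate 1 or 2 and with these groups alone. Ets2, its paralogue, was at 60.1 and 54.4 CPM in EV, 42.9 CPM in TC and 47.2, 48.9 and 48.4 CPM in TC + ATA. EV was highest and TC lowest, with −0.42 (SE 0.09, edgeR adjusted p = 0.00844) in TC and −0.25 (SE 0.07, edgeR adjusted p = 0.0164) in TC + ATA. The TC call for Ets2 was lost when only the 2 groups were fitted, and the TC + ATA call without any 1 TC + ATA replicate.

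Mef2c, a factor needed for vascular development, lies on chromosome 13 from 83504034 to 83667080. It was at 13.6 and 14.3 CPM in EV, 5.32 CPM in TC and 7.21, 7.28 and 6.99 CPM in TC + ATA. TC was the lowest library and TC + ATA lay between TC and EV. Mef2c fell by 1.39 on the log2 scale in TC (SE 0.13, edgeR adjusted p = 7.54e-05) and by 0.96 in TC + ATA (SE 0.09, edgeR adjusted p = 4.88e-05). TC + ATA versus TC gave 0.43 (SE 0.12, edgeR adjusted p = 0.251), called only without EV replicate 2 among the alternatives. Gata2, a factor of endothelial and blood progenitors, was at 29.95 and 30.5 CPM in EV, 25.7 CPM in TC and 22.3, 21.8 and 24.04 CPM in TC + ATA. Treated libraries were called lower than EV at −0.41 (SE 0.07, edgeR adjusted p = 0.00215), with −0.24 (SE 0.10, edgeR adjusted p = 0.115) in TC versus EV.

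Fli1, the closest relative of Erg, was at 1.23 and 1.21 CPM in EV, 1.05 CPM in TC and 0.880, 1.17 and 1.29 CPM in TC + ATA and was not called. Lmo2, a bridging factor of the blood and endothelial programme, had 4 and 5 counts in EV, 0 in TC and 10, 2 and 10 in TC + ATA, and its fitted fold changes against TC have no meaning at such counts. Tal1, Hhex and Prox1 had at most 8 counts in any library, and Hhex had at most 3 counts in every library. Ets1, Ets2, Mef2c and Gata2, the factors that were called, averaged between 9.11 and 134 CPM.

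Pdpn encodes podoplanin, a glycoprotein of lymphatic endothelium that fibroblasts also carry. It was at 53.9 and 45.7 CPM in EV, 66.8 CPM in TC and 68.1, 62.6 and 58.4 CPM in TC + ATA. Both EV libraries were under every fusion library. Pdpn was higher by 0.42 (SE 0.12, edgeR adjusted p = 0.0278) in TC and by 0.34 (SE 0.09, edgeR adjusted p = 0.0178) in TC + ATA. The first call was lost under 5 of 13 alternatives. These were the fits of EV and TC alone in edgeR and DESeq2, the replicate block, scaling by library size only and leaving out TC + ATA replicate 2. The other call was lost without TC + ATA replicate 1 or 2. Lyve1, the hyaluronan receptor of lymphatic vessels, had between 2 and 6 counts in a library. Thus the ligands Vegfc and Vegfd and podoplanin were called, while Flt4, Prox1 and Lyve1 were near zero.

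The 4 genes of endothelial secretion and vascular tone were not called. Egfl7, an endothelial matrix protein, was at 2.59 and 2.16 CPM in EV, 2.05 CPM in TC and 2.83, 2.36 and 2.23 CPM in TC + ATA. Nos3, the endothelial nitric oxide synthase, had between 6 and 19 counts in a library and shares 1334 of its 4132 exonic bases with genes on the other strand. Esm1, which marks sprouting tips, had 8 counts in TC + ATA replicate 3 and at most 1 in the others.

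**Figure D4:**
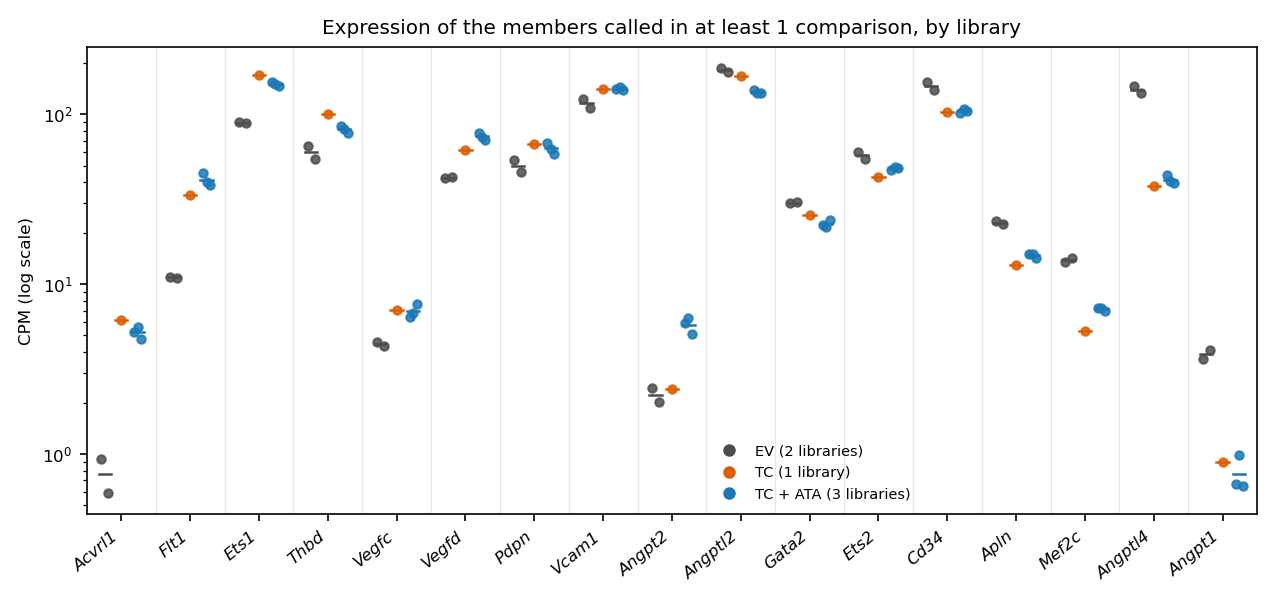
CPM on a log scale of the 17 members called in at least 1 comparison and with a mean of at least 1 CPM, with a point per library and a bar at the group mean. From Acvrl1 to Vcam1 the EV points lie under the fusion points, Angpt2 stands apart in TC + ATA alone, and from Ets2 to Angpt1 the EV points lie above.

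A further list of 71 genes of vascular pathways, none of them a member, was read in the same fit, and 63 of them were tested. In TC versus EV, 14 were higher and 13 lower. In TC + ATA versus TC, 5 were higher and 1 lower, and in TC + ATA versus EV 19 were higher and 12 lower. Shares of all genes, higher and lower, were 14.8% and 13.2% in the first, 0.426% and 0.156% in the second and 18.0% and 18.6% in the third. The medians of the list were 0.12, 0.09 and 0.25 in the same order. The list was chosen with earlier results of these data known, so its counts are not evidence of an excess.

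Selp, which encodes the platelet and endothelial adhesion molecule P-selectin, was at 0.0267 and 0 CPM in EV, 3.70 CPM in TC and 4.08, 3.88 and 4.89 CPM in TC + ATA. It was nearly undetected in EV (2 and 0 counts) and was called higher in both fusion groups. With so few counts in EV its fitted log2 fold change is no bound, and in TC versus EV it ran from 7.02 to 10.99 over the alternatives. Of its exonic bases, 624 of 4413 overlap a gene on the other strand. Ecscr, an endothelial surface protein, was at 0.134 and 0.0656 CPM in EV, 1.40 CPM in TC and 1.90, 2.14 and 1.58 CPM in TC + ATA. Its log2 fold change was 3.79 (SE 0.44, edgeR adjusted p = 0.000249) in TC versus EV and 4.21 (SE 0.38, edgeR adjusted p = 3.67e-05) in TC + ATA versus EV. Edn1, the vasoconstrictor endothelin-1, was at 0.749 and 0.459 CPM in EV, 7.12 CPM in TC and 5.26, 6.26 and 7.85 CPM in TC + ATA. It rose by 3.56 on the log2 scale in TC (SE 0.30, edgeR adjusted p = 3.39e-05). These genes joined Acvrl1 and Flt1 at the high end of the fold changes in TC versus EV. Jam2, a junction molecule, rose by 1.03 in TC (SE 0.20, edgeR adjusted p = 0.00521), and Nrp2, a co-receptor for VEGF-C, rose by 1.04 in TC + ATA against EV (SE 0.06, edgeR adjusted p = 2.94e-06).

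On the low side, Ednra, the receptor that binds endothelin-1, went from 3.29 and 2.95 CPM in EV to 0.317 CPM in TC and 0.633, 0.494 and 0.719 CPM in TC + ATA. Its log2 fold change was −3.29 (SE 0.39, edgeR adjusted p = 0.000295) in TC versus EV. Calcrl, the receptor for adrenomedullin, and S1pr3, a receptor for sphingosine 1-phosphate, fell by 2.60 and 1.97 in the same comparison. Adm, which encodes adrenomedullin, was at 26.3 and 26.8 CPM in EV, 7.26 CPM in TC and 15.6, 15.6 and 14.3 CPM in TC + ATA. Adm was lower in TC than in EV at −1.87 (SE 0.12, edgeR adjusted p = 6.64e-06) and higher in TC + ATA than in TC at 1.06 (SE 0.11, edgeR adjusted p = 0.00548).

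Thbs1 and Thbs2 encode thrombospondins, matrix proteins that inhibit angiogenesis. Thbs1 was at 513 and 527 CPM in EV, 152 CPM in TC and 309, 336 and 332 CPM in TC + ATA. The treated libraries lay between TC and EV for Thbs1, as they did for Thbs2 and Adm, where the TC level rests on a single library. TC + ATA versus TC gave 1.10 (SE 0.09, edgeR adjusted p = 0.00219) for Thbs1 and 0.78 (SE 0.09, edgeR adjusted p = 0.00926) for Thbs2. Smad6, an inhibitor of BMP signalling, was at 16.9 and 17.8 CPM in EV, 15.5 CPM in TC and 26.0, 26.9 and 24.2 CPM in TC + ATA, with 0.73 (SE 0.10, edgeR adjusted p = 0.0207) over TC. Ccbe1, a secreted factor that VEGF-C needs for its processing, was at 24.2 and 26.1 CPM in EV, 7.69 CPM in TC and 4.06, 3.41 and 3.65 CPM in TC + ATA. It was the gene of this list called lower with ATA, at −1.05 (SE 0.13, edgeR adjusted p = 0.0107), and it fell by 2.76 in TC + ATA against EV. The calls of Thbs2 and Smad6 against TC were lost without any 1 TC + ATA replicate, that of Adm without replicate 3 and that of Ccbe1 without replicate 2 or 3.

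**Figure D5:**
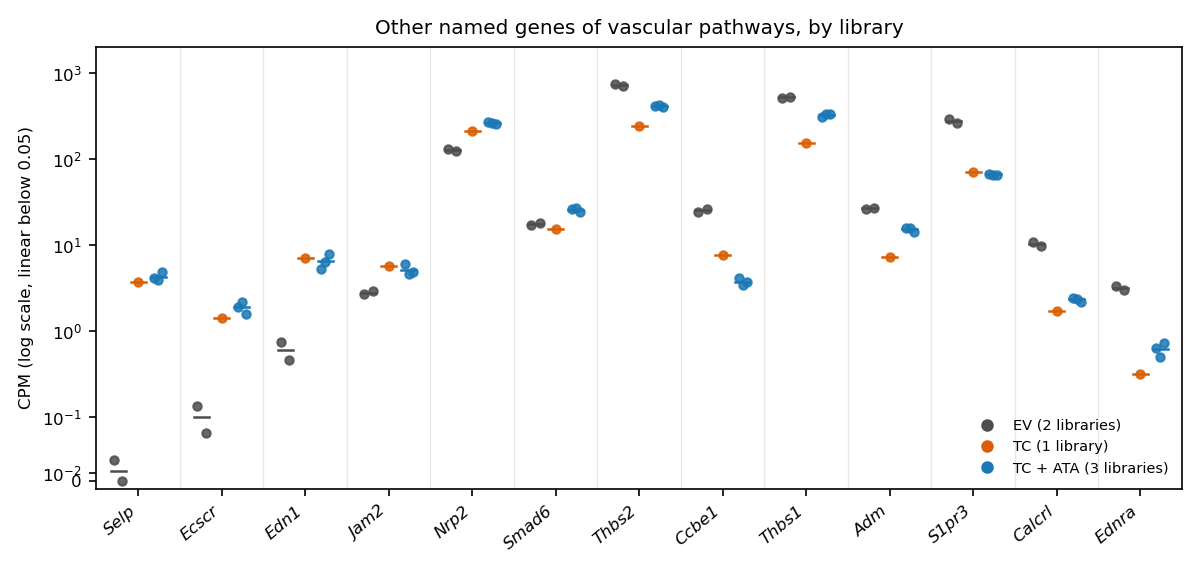
CPM of the 13 named genes of vascular pathways that are not members, by library, on an axis that is logarithmic above 0.05 CPM and linear below, with a bar at the group mean. Selp, Ecscr and Edn1 are higher in every fusion library than in EV, and the TC + ATA points of Thbs1, Thbs2 and Adm lie between TC and EV.

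Markers of other cell types were read beside these results. The 8 smooth muscle and pericyte markers summed to between 420 and 549 CPM in EV, 707 CPM in TC and between 1267 and 1335 CPM in TC + ATA. Acta2 carried most of that sum and was the 1 gene of the 8 that was called higher in any comparison, at 0.62 (edgeR adjusted p = 0.0127) in TC versus EV, 0.97 (edgeR adjusted p = 0.0303) in TC + ATA versus TC and 1.60 (edgeR adjusted p = 1.09e-05) in TC + ATA versus EV. The 7 epithelial markers summed to between 1.52 and 2.59 CPM in EV, 4.58 CPM in TC and between 3.24 and 4.73 CPM in TC + ATA, so that both fusion groups were above EV. Of the 4 that were tested, Krt14 alone was called, higher in TC versus EV at 1.09 (SE 0.35, edgeR adjusted p = 0.0487). The 8 haematopoietic markers summed to between 9.85 and 10.2 CPM in EV, 7.01 CPM in TC and between 5.58 and 10.7 CPM in TC + ATA, and Csf1r was called lower in TC + ATA versus EV at −1.27 (SE 0.28, edgeR adjusted p = 0.00709). Ptprc had 16 counts in TC + ATA replicate 1 and between 155 and 378 in the other libraries. Of the fibroblast markers, 3 were higher and 3 lower in TC versus EV, and 6 were higher and 2 lower in TC + ATA versus EV. The smooth muscle sum was highest in TC + ATA. The median RPKM of those 8 genes was 0.83 and 0.67 in EV, 0.74 in TC and 0.84, 0.65 and 0.80 in TC + ATA. The smooth muscle, epithelial and fibroblast sums were all higher in the fusion groups than in EV, as was the endothelial defining sum. What part the markers of other cell types had in the results above was not tested.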

How the data were processed

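Bulk RNA-Seq of 6 NIH3T3 libraries was analysed, grouped by the sample labels into EV (2), TC (1) and TC + ATA (3). RNA was selected by its poly(A) tail, and paired-end reads were aligned to GRCm38.p6 (mm10) by the authors with HISAT2, whose version is 2.2.1 in the submitters' processing notes. The files hold raw counts from featureCounts as deposited, without normalization. The annotation release, the use of strand and the handling of reads that match several genes are not given in the sources used here, so a gene with an overlapping neighbour can hold reads of both.

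The members and all gene lists were chosen with earlier results of these data known, and no list is independent evidence. Of 55401 identifiers, 55141 were found in GENCODE M21, which gave symbols, positions and exon lengths. One fit of the 6 libraries with edgeR 4.0.16 under R 4.3.3 gave all tests (filterByExpr, TMM, glmQLFit and glmQLFTest, two-sided, 3 residual degrees of freedom, Benjamini-Hochberg over 18539 genes). SEs were derived from the F statistic, and confidence intervals are at 95%. Values in every library are given for members that were called and averaged 1 CPM or more and for 10 defining markers. Of the pathway list, the 4 largest changes each way per comparison are named among genes called with at least 1 CPM. Acta2, Krt14, Csf1r and Ptprc, and the motif TGACGTCA, were chosen after their values were seen.

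Library totals had a median of 71053010 counts. Limits of 3 counts cover counting error only, and precision is limited by how few libraries there are. The edgeR step was run on simulated data in which a gene had the same spread in all groups, so unequal spread between groups was not covered. Promoters came from a RefSeq table, and for 30 of 38 member promoters the last 30 bases of the entry, after the start, were found in a transcript of the gene. The alternatives were DESeq2 1.42.0 with all libraries or only the groups compared, edgeR on only the groups compared, upper-quartile or library-size scaling, no filter or a stricter one, a replicate block and each EV or TC + ATA replicate left out.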

Additional observations from a re-analysis of the deposited data

How the results depend on the processing

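Of 35 called values of members, 22 were called under each of 13 alternatives and none reversed. DESeq2 with only the groups compared was chosen after seeing the data, and the other 12 were planned. In TC versus EV, the 9 members called higher became 5 with the replicate block and 4 with DESeq2 on only the 2 groups, while without 1 replicate they were 6 to 9 and the 6 called lower were 6 to 7. In TC + ATA versus TC, the 1 called higher became 0 with a filter of at least 1 CPM in 2 libraries and with the replicate block, 3 with only the 2 groups compared in edgeR or DESeq2, and 0 to 4 without 1 replicate. The 0 called lower became 1 with DESeq2 on the 6 libraries, 3 with only the 2 groups compared in edgeR or DESeq2, and 0 to 3 without 1 replicate. TC + ATA versus EV gave 8 to 11 higher and 7 to 9 lower without 1 replicate. Calls over all genes moved as well. In TC versus EV they went from 2735 higher and 2456 lower to 1717 and 1467 with the replicate block. With DESeq2 on only the 2 groups they were 1315 and 1095 of 26043 genes. Without 1 TC + ATA replicate they were 2162 to 2296 higher and 1912 to 2073 lower. The cause of these shifts was not tested.

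Over all genes, TC + ATA versus TC ranged from 7 to 808 called higher and from 3 to 762 called lower, with 808 and 608 without EV replicate 2. Small values that were not called changed sign, namely, in TC + ATA versus TC, Pdpn (0.057 with the replicate block) and, without 1 replicate, Vcam1 (from −0.0068 to 0.0257) and Vegfc (from −0.0985 to 0.0287), and in TC versus EV, without 1 replicate, Angpt2 (from −0.0096 to 0.239). Scaling by library size only moved the median of all genes by −0.11 in TC versus EV, and the calls there from 2735 higher and 2456 lower to 2072 and 3160. In TC + ATA versus EV they went from 3340 and 3449 to 2711 and 4384.

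The labels number replicates 1 and 2 in both EV and TC + ATA, but the deviations of same-numbered libraries did not correlate (−0.03 and −0.15). The deviations of the EV pair mirror each other, so this check rests on a single EV contrast and cannot exclude pairs. The numbers were not taken as pairs in the main fit, and the block leaves 1 residual degree of freedom. Genes under 1 CPM are limited by depth, and comparisons with TC by its single library. Where leaving out a replicate left EV with 1 library, that library was assumed to vary like the others.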
